A study of Rattus norvegicus with 8 samples.

Results

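RNA of genes for protein turnover by ubiquitin was examined in rat retinal ganglion cells (RGCs), neurons that signal from the retina to the brain. The stages were the embryonic one at which their axons grow best and the postnatal one at which that capacity is lowest. Turnover itself was not measured. The genes were chosen by symbol alone, as the E2 conjugating enzymes (Ube2), the RING finger (Rnf) and tripartite motif (Trim) proteins, the F-box (Fbxo, Fbxl, Fbxw), cullin (Cul) and kelch-like (Klhl) proteins, the ubiquitin-specific proteases (Usp) and the proteasome subunits and assembly factors (Psm). Patterns for other ligase and protease families in the same rule matched no named gene. The rule found 55 genes among the 1998 that could be paired with a symbol, out of 32623 gene IDs counted, so many genes of these families were not analysed here. Of the 55 genes, 50 passed the filter on low counts and were tested, and Fbxo40, Psmb8, Psmb9, Trim10 and Trim25 were not.

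RGCs came from untreated Sprague Dawley rats taken either on day 21 of gestation (E21) or 11 days after birth (P11), and each of the 4 libraries per stage came from a litter of its own. They were isolated by immunopanning, which removed macrophages on one antibody-coated plate and retained Thy1-positive cells on another. The retinas had been dissociated with papain, of which more was used at P11. All libraries were sequenced in the same lane. Between 13899299 and 20116017 reads were counted on genes per library, and the 55 genes took 0.347 to 0.356% of them in every library. Reads that aligned to several places made up 40.3% ± 2.05 (SD, n = 4) of the read records at E21 and 34.7% ± 2.15 (n = 4) at P11, and such reads were not counted on any gene.

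Ubiquitin is attached to proteins by a cascade in which an E2 conjugating enzyme carries ubiquitin and an E3 ligase chooses the substrate. Many E3 ligases are single RING or TRIM proteins, while others are built on a cullin scaffold with an exchangeable F-box or kelch-like substrate receptor. Deubiquitinases such as the USP proteases remove ubiquitin, and the proteasome, a barrel-shaped core capped by a regulatory particle, degrades proteins that carry suitable ubiquitin chains. In neurons this system shapes growth cones, axon pruning and synapses.

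Because the study asks which regulatory motifs accompany the embryonic programme, and names that of CREB/ATF factors among them, the promoters of these genes were read from RefSeq on the assembly GRCr8, which held an entry for 44 of the 55 genes. The window was the 250 bases before the transcription start. It was searched on both strands for the cAMP response element (CRE, TGACGTCA), which CREB is known to bind and which was chosen here to stand for that motif, its half-site (TGACG), which the full CRE contains, and the GC box (GGGCGG). Ube2d1, Rnf2 and Trim16 are shown because their log2 ratio of E21 to P11 exceeded 1 and their adjusted p lay under 0.01. No other gene with an entry met both limits on the embryonic side. Further genes with an entry were higher at E21 by adjusted p alone. Fbxw9 is 1 of those, and is shown because it alone held the full CRE. Capitals mark the GC box in Ube2d1 and Rnf2, on the other strand in Rnf2, and the CRE in Fbxw9. The sequences are written 5′ to 3′ along each gene, and Trim16 held none of the motifs.
Ube2d1, chr20:17308209-17308458, + strand: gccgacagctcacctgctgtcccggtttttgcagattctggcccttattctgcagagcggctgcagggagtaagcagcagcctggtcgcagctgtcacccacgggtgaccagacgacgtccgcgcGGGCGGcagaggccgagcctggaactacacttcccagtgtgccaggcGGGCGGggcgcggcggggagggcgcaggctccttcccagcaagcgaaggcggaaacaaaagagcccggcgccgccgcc
Rnf2, chr13:66132912-66133161, - strand: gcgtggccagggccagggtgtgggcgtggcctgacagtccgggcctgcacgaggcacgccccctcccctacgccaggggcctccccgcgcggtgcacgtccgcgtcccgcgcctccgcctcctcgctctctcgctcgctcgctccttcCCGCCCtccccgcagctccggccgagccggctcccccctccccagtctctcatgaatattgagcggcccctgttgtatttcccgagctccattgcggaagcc
Trim16, chr10:47985300-47985549, + strand: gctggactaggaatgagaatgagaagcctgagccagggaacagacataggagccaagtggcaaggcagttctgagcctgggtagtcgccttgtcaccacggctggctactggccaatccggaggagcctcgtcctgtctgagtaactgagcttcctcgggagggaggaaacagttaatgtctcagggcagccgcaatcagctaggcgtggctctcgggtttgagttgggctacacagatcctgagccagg
Fbxw9, chr19:40002313-40002562, - strand: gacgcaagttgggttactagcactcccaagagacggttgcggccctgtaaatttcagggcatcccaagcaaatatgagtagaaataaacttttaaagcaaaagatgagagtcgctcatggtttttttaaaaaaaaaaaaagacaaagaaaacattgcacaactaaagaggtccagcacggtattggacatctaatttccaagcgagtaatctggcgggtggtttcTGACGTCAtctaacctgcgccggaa

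None of the promoters of Ube2d1, Rnf2 and Trim16 held the CRE or its half-site in this window, and 2 of the 3 held a GC box. Over the 44 genes, 1 held the CRE (2.27%), against 1.59% of all 33465 promoters and 1.89% of the 21849 of protein-coding genes. The half-site was found in 16 of the 44 (36.4%), against 18.2% of all promoters and 20.4% of the protein-coding ones. The GC box was found in 20 (45.5%), against 30.5% and 38.9%. At an adjusted p below 0.01, the genes with the half-site that were higher at E21 were Klhl28, Trim41, Psmg1 and Fbxw9. Those higher at P11 were Klhl21, Klhl22, Klhl42, Fbxo28, Psmd9 and Rnf39. The other genes with the half-site did not pass or were not tested. For scale, 15 of the 50 genes tested, with or without an entry, were higher at E21 by adjusted p and 19 at P11. Over all genes tested the shares were 33.8% and 34.6%. Whether the half-site goes with either stage was not tested. The motifs are matches of letters in a window, and no binding was measured here.

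At an adjusted p below 0.01, 15 of the 50 genes tested had more RNA at E21 and 19 had more at P11, whereas 33.8% and 34.6% of all 14043 genes tested did, or 68.4% in either direction. When the log2 ratio of E21 to P11 also had to exceed 1 in size, 4 genes remained on the E21 side (Ube2d1, Rnf2, Trim16 and Usp42) and 2 on the P11 side (Rnf6 and Usp43). That is 12% of the genes tested, and the background over all genes was 8.16% higher at E21, 16.5% higher at P11 and 24.7% in either direction. The log2 fold change was within 0.5 of 0 for 33 of the 50 genes (66%) and for 50.6% of all genes. The median log2 fold change was -0.05 for these genes and 0.00 for all genes, and the median of its size was 0.40 and 0.49. The background was not matched for level of RNA. A mean of at least 20 CPM, which are counts relative to the TMM-scaled library size, was reached by 42 of the 50 genes. Of all 14043 genes, 7379 reached it. The smaller changes of these genes were therefore not compared with those of genes at a like level.

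**Figure D1:**
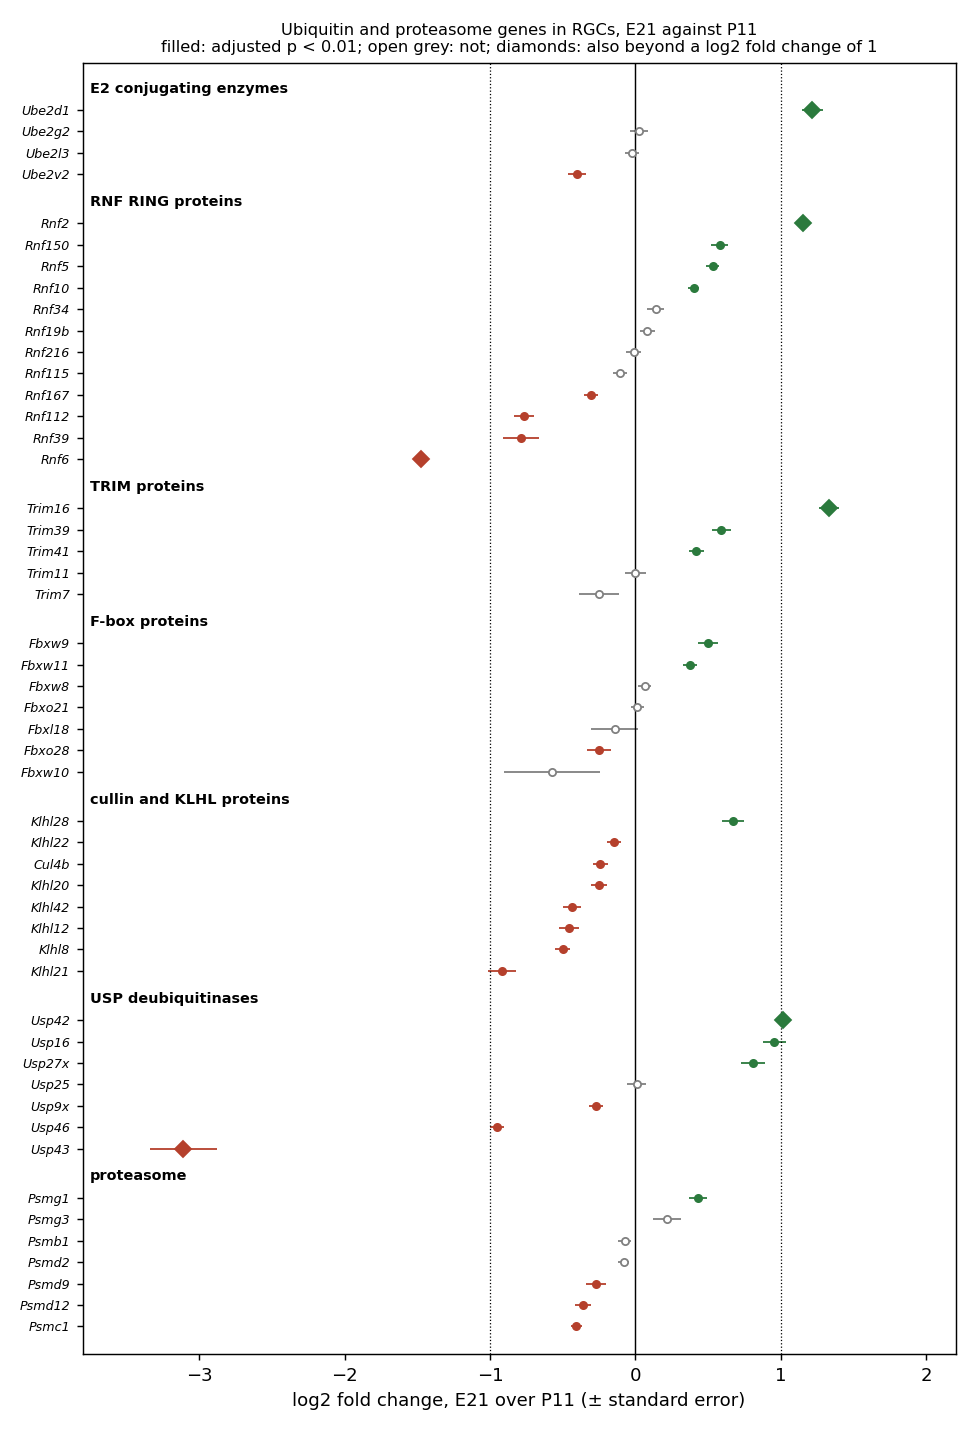
Log2 fold change (E21 over P11, horizontal axis) with its standard error for each of the 50 genes tested, grouped by role. Filled points passed an adjusted p of 0.01 (green higher at E21, red higher at P11), open grey points did not, diamonds also lay beyond a log2 fold change of 1, and Usp43 at -3.11 stands apart from the other genes.

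The libraries of the stages did not overlap for 33 of the 50 genes. All E21 libraries were above all P11 libraries for 15 of them and below for 18, which is 66% of the genes. Over all genes the shares were 35.4% and 35.9%, or 71.3% in either direction. Within a stage the genes varied little. At a mean of at least 20 CPM, the median coefficient of variation over 42 of these genes was 4.43% at E21 and 4.55% at P11. Over the 7379 genes at that level it was 4.70% and 4.99%.

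**Figure D2:**
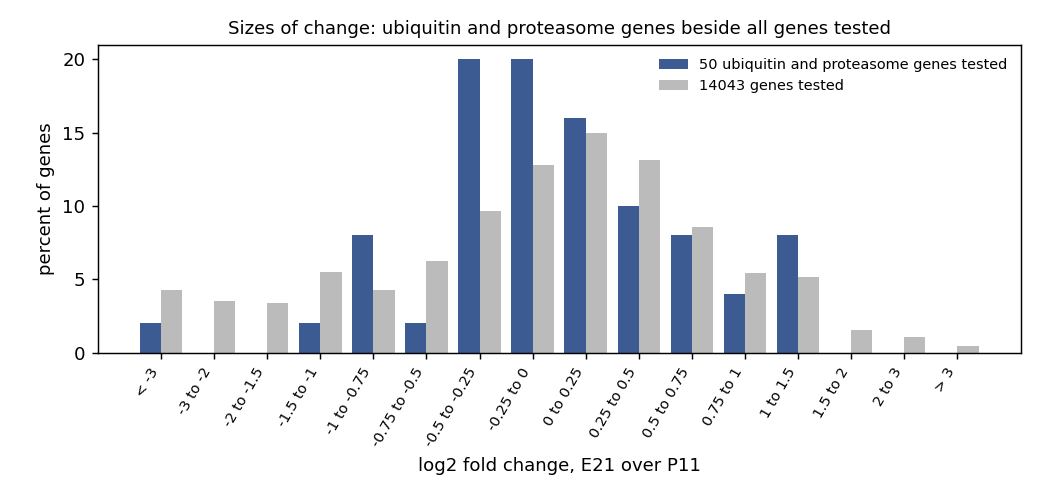
Percent of genes (vertical axis) in each interval of the log2 fold change, E21 over P11 (horizontal axis), for the 50 ubiquitin and proteasome genes tested (blue) and for all 14043 genes tested (grey). The intervals between -0.5 and 0 each held 20% of these genes, against 9.66% and 12.8% of all genes. Those between 0 and 0.5 held 16% and 10%, against 15% and 13.1%. Beyond 1 in either direction lay 12% of these genes and 25% of all genes, which were not matched for level.

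Among the 4 E2 genes, 1 was higher at E21 past both thresholds and 1 was higher at P11 by adjusted p alone. Ube2d1 (ENSRNOG00000000611), an E2 that serves many RING ligases, had 243, 319.9, 309 and 306 CPM in E21 libraries 1 to 4 and 126, 124, 128 and 129.7 CPM in the P11 libraries. Library 1 was the lowest at E21 and still lay above every P11 library. The means were 294 ± 34.6 CPM (SD, n = 4) and 127 ± 2.47 CPM (n = 4), a log2 fold change of 1.22 (SE 0.07, adjusted p = 9.44e-09). Ube2v2 (ENSRNOG00000001829), an E2 variant without catalytic activity that partners Ube2n in building a chain type used mainly in signalling, was higher at P11, at 48.4 ± 1.37 against 64.1 ± 5.84 CPM (log2 fold change -0.40, SE 0.06, adjusted p = 1.15e-05). Ube2g2, an E2 of endoplasmic reticulum quality control, had 30.8 ± 1.71 and 30.4 ± 1.49 CPM, with a log2 fold change of 0.02 (SE 0.06) that did not pass and whose sign depended on the scaling. Ube2l3, an E2 for HECT and RING-between-RING ligases, did not pass either.

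By adjusted p, 4 of the 12 RNF genes were higher at E21, 4 were higher at P11 and 4 did not pass, close to the background of 33.8% and 34.6% of all genes. Rnf2 (ENSRNOG00000002454), the catalytic ligase of Polycomb repressive complexes that modifies a core histone, had 105, 107, 113 and 115 CPM in E21 libraries 1 to 4 and 49.3, 47.5, 50.2 and 51.1 CPM in the P11 libraries. The stages were far apart relative to the spread within each. Its means were 110.1 ± 4.85 and 49.5 ± 1.56 CPM (log2 fold change 1.15, SE 0.05, adjusted p = 9.45e-13). Rnf6 (ENSRNOG00000000968), a ligase known in growth cones for targeting LIM kinase, a regulator of actin, went the other way. It had 36.5, 40.4, 38.3 and 40.4 CPM at E21 and 110.3, 109.8, 108 and 104 CPM at P11. No libraries overlapped, and the log2 fold change was -1.47 (SE 0.05, adjusted p = 7.08e-14), the smallest adjusted p among the 50 genes.

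The other RNF genes that passed by adjusted p lay short of the fold threshold. Rnf150 (51.1 ± 3.65 against 34.2 ± 1.48 CPM, log2 fold change 0.58), a membrane RING protein, Rnf5 (98.7 ± 3.90 against 68.3 ± 2.58 CPM, 0.53), a ligase of the endoplasmic reticulum membrane, and Rnf10 (418 ± 6.84 against 317 ± 9.61 CPM, 0.40), a ligase for small ribosomal subunit proteins, were higher at E21. Rnf39 (4.74 ± 0.309 against 8.22 ± 0.756 CPM, -0.79), Rnf112 (44.8 ± 1.90 against 76.4 ± 7.77 CPM, -0.77), a brain-enriched GTPase with a RING domain, and Rnf167 (51.4 ± 0.952 against 63.5 ± 2.97 CPM, -0.30), a ligase of endosomes and lysosomes, were higher at P11. Adjusted p-values of these 6 genes lay between 1.5e-08 for Rnf5 and 2.55e-05 for Rnf167. Rnf19b, Rnf34, Rnf115 and Rnf216 did not pass under TMM scaling, each within 0.14 of 0 on the log2 scale.

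**Figure D3:**
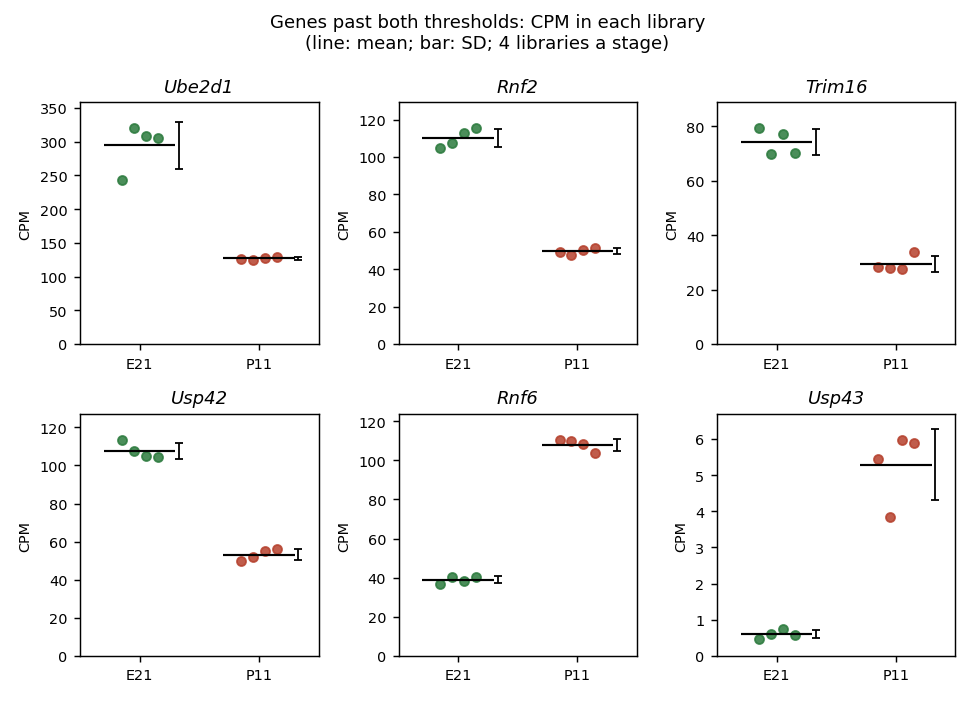
CPM (vertical axes, from 0) in each of the 4 E21 libraries (green) and 4 P11 libraries (red) for the 6 genes past both thresholds, with the mean as a line and the SD as a bar. The stages do not overlap for any of the 6, and at E21 Ube2d1 ranges from 243 to 319.9 CPM, all above its P11 libraries.

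Of the 5 TRIM genes tested, 3 were higher at E21 and none was higher at P11 by adjusted p, beside 33.8% and 34.6% of all genes. Trim16 (ENSRNOG00000003219), a TRIM protein without a RING domain that takes part in clearing damaged lysosomes, had 79.3, 69.8, 77.3 and 70.2 CPM at E21 and 28.2, 27.8, 27.7 and 33.7 CPM at P11. P11 library 4 stood above the other three P11 libraries but far below the E21 range. Its log2 fold change was 1.33 (SE 0.07, adjusted p = 1.92e-11). Trim39, a ligase that acts on regulators of apoptosis and the cell cycle, had 27.3 ± 0.495 and 18.1 ± 0.802 CPM (0.59, adjusted p = 1.97e-07). Trim41 had 57.9 ± 2.30 and 43.3 ± 1.91 CPM (0.42, adjusted p = 1.39e-06). Trim7, known as an interactor of glycogenin, did not pass (5.16 ± 0.654 against 6.16 ± 0.671 CPM, adjusted p = 0.11), nor did Trim11. Trim41 and Trim7 are adjacent genes in the RefSeq order, as are Trim16 and Fbxw10, and in each pair one gene passed and the other did not. Trim10, known from erythroid cells, had 9 counts in all at E21 and 7 at P11, and Trim25, a ligase of the antiviral response, had 26 and 33. The ratios of P11 to E21 were 0.796 (95% interval 0.252 to 2.4) and 1.30 (0.753 to 2.26), which cover counting error only.

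Of the 8 cullin and KLHL genes, 7 were higher at P11 by adjusted p and Klhl28 was higher at E21, where 34.6% and 33.8% of all genes were. None passed the fold threshold, which 24.7% of all genes passed together with the adjusted p. The median log2 fold change of the 8 was -0.34. Klhl21 (ENSRNOG00000003334), a receptor known from mitotic ubiquitination of Aurora B, had 7.03, 7.85, 7.24 and 7.39 CPM at E21 and 13.6, 14.1, 15.2 and 12.9 CPM at P11, and the stages did not overlap. Its log2 fold change was -0.92 (SE 0.09, adjusted p = 1.34e-07), just under the fold threshold. Klhl28 (ENSRNOG00000004218) had 23.9, 22.8, 23.0 and 22.6 CPM at E21 and 15.4, 12.7, 15.0 and 15.0 CPM at P11, again without overlap, with a log2 fold change of 0.67 (SE 0.07, adjusted p = 3.91e-07).

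The other KLHL receptors and the scaffold shifted by smaller steps. Klhl8 had 49.0 ± 1.04 and 69.4 ± 4.41 CPM (log2 fold change -0.50). Klhl12, known for ubiquitination of a coat protein of secretory vesicles, had 20.9 ± 1.504 and 28.7 ± 1.34 CPM (-0.45). Klhl42, a receptor for the microtubule-severing enzyme katanin, had 25.9 ± 1.21 and 35.1 ± 1.86 CPM (-0.44). Klhl20, a receptor for death-associated protein kinase, differed by -0.25, and Cul4b, the cullin scaffold that binds the adaptor Ddb1, by -0.24 (40.4 ± 0.656 against 47.7 ± 1.91 CPM). Adjusted p-values of these 5 genes lay between 1.79e-07 for Klhl8 and 0.000613 for Klhl20. Klhl22, known from mitosis and nutrient signalling, had 52.8 ± 1.30 and 58.4 ± 1.60 CPM (-0.15, adjusted p = 0.00871). Its adjusted p was 0.0101 to 0.0319 in the 7 fits that each left out a library other than P11 library 3, so the count of 7 was 6 in those.

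None of the 7 F-box genes tested passed both thresholds, and by adjusted p 2 were higher at E21 and 1 at P11, beside 33.8% and 34.6% of all genes. Fbxw9 (ENSRNOG00000004212), the gene with the CRE shown above, had 50.5, 44.0, 46.1 and 43.6 CPM at E21 and 29.4, 30.5, 36.4 and 33.9 CPM at P11. All E21 libraries were above all P11 libraries, and the log2 fold change was 0.50 (SE 0.07, adjusted p = 6.63e-06). Fbxw11, a receptor for phosphorylated substrates such as beta-catenin, was also higher at E21, at 110.3 ± 8.01 against 84.95 ± 2.09 CPM (0.38, adjusted p = 3.84e-06). Fbxo28 was higher at P11, at 20.01 ± 2.22 against 23.8 ± 1.41 CPM (-0.25, adjusted p = 0.00973), with overlapping libraries. That call was lost without E21 library 1, 2 or 3 or P11 library 1 or 2, at adjusted p-values of 0.0121 to 0.0439.

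The F-box genes that did not pass ranged from near 0 to the least certain value of the set. Fbxo21 had 154 ± 6.89 and 153 ± 5.26 CPM, a log2 fold change of 0.01 (SE 0.04) whose sign depended on the scaling. Fbxw10 had 0.703 ± 0.254 and 1.06 ± 0.330 CPM (-0.58, SE 0.33, adjusted p = 0.122), with 7 to 20 counts per E21 library and the highest coefficient of variation of the 50 genes. Fbxl18 and Fbxw8, a partner of Cul7 known from dendrite growth, did not pass. Fbxo40, a muscle F-box protein, had 0 counts in the 4 E21 libraries and 2, 5, 4 and 1 at P11. With a floor of 3 counts in place of the E21 sum, the ratio of P11 to E21 was 4.09, without counting error in the P11 counts.

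By adjusted p, 3 of the 7 USP deubiquitinases were higher at E21, 3 were higher at P11 and Usp25 did not pass, beside 33.8% and 34.6% of all genes. Their median size of log2 fold change was 0.95, beside 0.49 for all genes. Usp43 (ENSRNOG00000003785) had 0.469, 0.608, 0.735 and 0.585 CPM at E21, from 7, 12, 14 and 8 counts, and 5.44, 3.85, 5.97 and 5.89 CPM at P11, from 81, 65, 94 and 108 counts. The stages did not overlap, and the log2 fold change of -3.11 (SE 0.23, adjusted p = 1.75e-09) was the largest in size among the 50 genes. Usp42 (ENSRNOG00000001059), a nuclear protease known from p53 regulation, had 113, 107, 105 and 104 CPM at E21 and 49.9, 51.7, 55.2 and 55.9 CPM at P11. Its libraries were well apart, but the log2 fold change of 1.01 (SE 0.05, adjusted p = 8.04e-12) lay at the fold threshold. It fell to 0.99 without E21 library 1, P11 library 1 or P11 library 2, and was then no longer past it.

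Just short of the fold threshold stood 2 further proteases, 1 in each direction. Usp16 (ENSRNOG00000001598), which removes the histone mark that Rnf2 places, had 27.4, 25.1, 30.0 and 29.9 CPM at E21 and 13.9, 13.6, 14.3 and 16.1 CPM at P11. It was therefore higher at E21 in every library, as Rnf2 was, with a log2 fold change of 0.95 (SE 0.08, adjusted p = 9.37e-09), and 1.01 without P11 library 4. Usp46 (ENSRNOG00000002106), a synaptic deubiquitinase known for acting on glutamate receptors, had 51.5, 47.9, 51.2 and 49.7 CPM at E21 and 101.9, 96.8, 94.8 and 94.0 CPM at P11. The log2 fold change was -0.95 (SE 0.05, adjusted p = 8.45e-12), and -1.01 when scaled by library size. Usp27x, an X-linked protease known from apoptosis, was higher at E21 (17.9 ± 1.10 against 10.2 ± 0.758 CPM, 0.81, adjusted p = 1.83e-07), and Usp9x, another X-linked protease with many neuronal substrates, was higher at P11 (426 ± 29.2 against 515 ± 18.4 CPM, -0.27, adjusted p = 6.3e-05).

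Of the 7 genes of the standard proteasome and its assembly, all of them tested, 3 were higher at P11 by adjusted p, 1 was higher at E21 and 3 did not pass, beside 34.6% of all genes higher at P11 and 33.8% higher at E21. None passed the fold threshold as well, which 24.7% of all genes did. Psmc1 (ENSRNOG00000003951), an ATPase of the regulatory particle, had 82.5, 87.0, 84.7 and 85.6 CPM at E21 and 115, 113, 110.5 and 112 CPM at P11. The stages did not overlap, at a log2 fold change of -0.41 (SE 0.04, adjusted p = 6.82e-08). Psmd12, a lid subunit of the regulatory particle, differed likewise (37.0 ± 1.82 against 47.4 ± 2.44 CPM, -0.36, adjusted p = 2.22e-05), as did Psmd9, a chaperone for assembly of its base (24.3 ± 0.899 against 29.3 ± 2.27 CPM, -0.27, adjusted p = 0.00156).

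Of the 2 chaperones for assembly of the core, Psmg1 was higher at E21 and Psmg3 did not pass. Psmg1 (ENSRNOG00000001643) had 36.0, 36.5, 36.0 and 36.6 CPM at E21 and 29.7, 27.9, 25.5 and 24.8 CPM at P11, without overlap (log2 fold change 0.43, SE 0.06, adjusted p = 1.09e-05). Psmg3 had 25.5 ± 3.18 and 22.1 ± 2.58 CPM, with overlapping libraries (0.22, SE 0.10, adjusted p = 0.052). Psmd2, a scaffold subunit of the regulatory particle, had 239.5 ± 7.46 and 253 ± 4.35 CPM (-0.08, SE 0.04, adjusted p = 0.0665), and passed at adjusted p-values of 0.00371 with library size, 0.00575 with upper-quartile scaling and 0.00987 where each library had to hold 10 counts. Psmb1, a subunit of the core, did not pass.

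**Figure D4:**
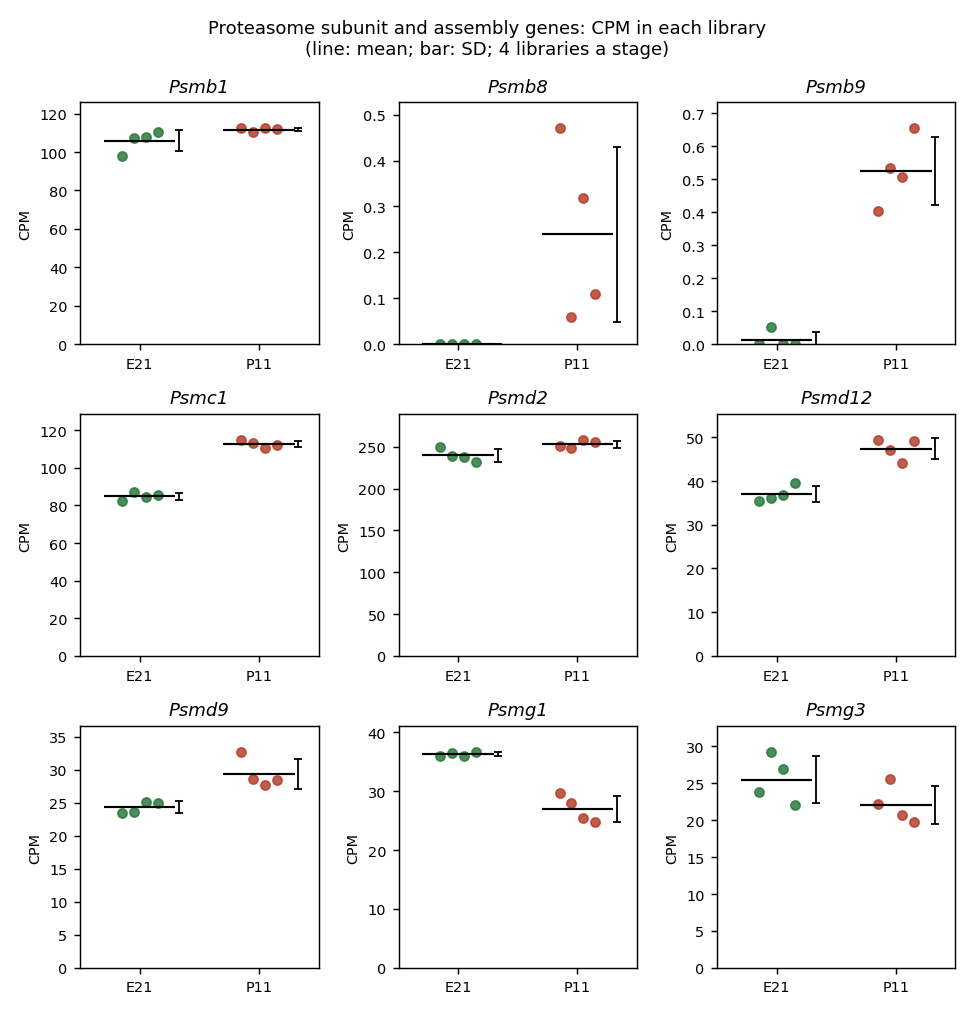
CPM (vertical axes, from 0 and different for each gene) in each of the 4 E21 libraries (green) and 4 P11 libraries (red) for the 9 proteasome genes, with the mean as a line and the SD as a bar. Psmb8 and Psmb9 lie near 0 at E21 and below 1 CPM at P11, while the 7 other genes differ between the stages by log2 fold changes of -0.41 to 0.43.

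The genes of the immunoproteasome, the form that replaces core subunits when peptides are prepared for MHC class I, were barely detected. Psmb8 (ENSRNOG00000000456) had 0 counts in each of the 4 E21 libraries and 7, 1, 5 and 2 counts in the P11 libraries. With a floor of 3 counts in place of the E21 sum, the ratio of P11 to E21 was 5.12. That ratio leaves out counting error in the P11 counts. Psmb9 (ENSRNOG00000000459) had 0, 1, 0 and 0 counts at E21 and 6, 9, 8 and 12 at P11, a ratio of 35.8 (95% interval 6.02 to 1450, counting error only). Every P11 library was above every E21 library for both genes. They were below the filter, and passed both thresholds when no filter was applied.

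Other genes of the MHC and interferon response were read beside them. Tap1, the peptide transporter gene that lies between Psmb8 and Psmb9 in the RefSeq order, had 0.536, 0.304, 0.577 and 0.731 CPM at E21 and 2.82, 2.37, 2.03 and 3.38 CPM at P11 (log2 fold change -2.33, adjusted p = 9.36e-07). Of the 7 genes on that list, 4 were tested, and Tap1, Mx1 (-3.59) and Mx2 (-2.27) passed both thresholds higher at P11, whereas Oasl did not pass. Ciita, Ifi47 and Gbp6 were below the filter. The sum of the list was 1.67 to 3.73 CPM at E21 and 10.5 to 16.5 CPM at P11. The markers of microglia and macrophages, Ptprc, Aif1 and Itgb2, were all below the filter and summed to 0.201 to 0.472 CPM at E21 and 0.134 to 0.952 CPM at P11. They did not move together. Aif1 had 0, 0, 1 and 0 counts at E21 and 1, 2, 9 and 9 at P11, Ptprc had 1, 3, 4 and 3 and then 1, 1, 6 and 6, and Itgb2 had 2, 4, 4 and 1 and then 0, 1, 0 and 0. Their part in the values of Psmb8 and Psmb9 was not tested.

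RNA of marker genes for other cell types also differed between the stages. Such markers need not be specific, and the study names 1 of them, Pax6, among factors of RGC differentiation. The study also reports that RGC markers such as Pou4f1 and Rbpms were high relative to markers of other retinal cells. Those were microglia, astrocytes, Müller cells, photoreceptors, bipolar and amacrine cells. It cites earlier work for the high purity of RGCs isolated this way. In bulk RNA, fewer cells of a type and less RNA per cell cannot be told apart. The 5 markers of mural cells and fibroblasts summed to 16.1 to 21.8 CPM at E21 and 415 to 807 CPM at P11, 4 of them passing both thresholds higher at P11 (among them Rgs5 and Col1a1) and Pdgfra higher at E21. The 3 endothelial markers summed to 20 to 23.8 and 28.5 to 41.8 CPM with 2 higher at P11, the 4 photoreceptor markers to 5.32 to 6.96 and 17.1 to 29.2 CPM with 2 higher at P11, and the 4 bipolar cell markers to 41.4 to 49.0 and 87.3 to 94.5 CPM. Most of the bipolar sum was Prkca (38.3 ± 2.68 against 87.5 ± 3.23 CPM), which passed both thresholds higher at P11, whereas Grm6 was lower at P11 (5.97 ± 0.590 against 3.37 ± 0.449 CPM, log2 fold change 0.82, adjusted p = 8e-05), and Lhx4 (0.842 ± 0.229 against 0.400 ± 0.186 CPM) and Pcp2 were below the filter. The 3 astrocyte and Müller cell markers summed to 0.669 to 0.861 and 1.15 to 2.62 CPM (1 higher at P11), and the 3 amacrine and horizontal cell markers to 427 to 444 and 316 to 325 CPM, most of it Pax6, with Prox1 higher at E21 and Gad1 higher at P11 past both thresholds. The 3 neuronal markers, none of them specific to RGCs, summed to 3360 to 3500 and 2050 to 2180 CPM. Of these, Gap43, a growth cone protein, was higher at E21 past both thresholds (1710.5 against 622.7 CPM). Uchl1 was higher at E21 by adjusted p alone (log2 fold change 0.21), and Rbfox3 did not pass (118.8 against 125.8 CPM). The 2 oligodendrocyte markers summed to 25.8 to 32.1 and 13.8 to 15.1 CPM (1 higher at E21). The 3 proliferation markers summed to 41.9 to 50.1 and 31.9 to 45.5 CPM. Cdk1 was higher at P11 past both thresholds (0.343 against 2.72 CPM). By adjusted p alone, Mcm6 was higher at E21 (28.1 against 14.4 CPM) and Mcm4 higher at P11 (16.9 against 20.7 CPM). The part of other cell types in the differences of the ubiquitin and proteasome genes was not tested. That holds also for Usp43, Fbxo40, Psmb8 and Psmb9, which had few or no counts at E21.

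Further genes of the ubiquitin system outside the symbol rule, 68 in all with 66 tested, were read in the same fit. At an adjusted p below 0.01, 31 were higher at E21 and 20 at P11 (33.8% and 34.6% of all genes), and 5 in each direction passed both thresholds (15.2% against the 24.7% of all genes). Ubiquitin itself, as the fusion gene Rps27a, was higher at E21 (240.5 ± 26.5 against 116 ± 6.24 CPM, log2 fold change 1.06, adjusted p = 2.59e-08), as were Ubtd2 (1.54), G2e3 (1.08), Rhobtb1 (1.21) and Socs3 (2.03), a cullin-ligase adaptor that limits cytokine signalling and has been tied to optic nerve regeneration. Higher at P11 were Sqstm1 (226 ± 8.95 against 494 ± 46.2 CPM, -1.13, adjusted p = 1.35e-10), a receptor that delivers ubiquitinated cargo to autophagy, Mid1 (-1.65), a TRIM-type ligase of microtubules, Lnx1 (-1.10), Ubl3 (-1.22) and Dtl (-2.81), a Cul4 receptor of replicating cells that was near 0 at E21 (0.155 ± 0.185 CPM). All 5 anaphase-promoting complex genes on the list were higher at E21 by adjusted p, as were 33.8% of all genes, at log2 fold changes of 0.20 for Anapc7 to 0.96 for Anapc16, and none passed the fold threshold.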

How the data were processed

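RGC RNA was depleted of ribosomal RNA, and libraries were made and sequenced on an Illumina HiSeq. The authors used Cutadapt 1.16 for trimming, PRINSEQ for quality filtering, STAR 2.5.3a for alignment to Rnor_6.0 and HTSeq 0.6.1 for counting. The values used are the deposited raw counts per Ensembl gene ID, 1 file per library, without normalization or pooling. The annotation release and the strand setting are not given in the sources used here, so overlapping genes may share reads. Rows that name no gene stayed out of library sizes (15.4 to 19.2% of read records had no feature, and 31.7 to 42.2% were not unique). Symbols came from the study's supplementary gene table, read in part (1998 rows), whose normalized values and comparison columns were not used. The RefSeq gene table paired none of the IDs. CPM values are not divided by gene length, so levels of different genes are not comparable as amounts of RNA. That limits the sums over markers, the part of 1 gene in such a sum, and the highest and lowest mean CPM per role.

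Counts were filtered with filterByExpr, scaled by TMM and tested by edgeR 4.0.16 (R 4.3.3), with the robust quasi-likelihood test, and p-values were adjusted by Benjamini-Hochberg across all 14043 of these genes. The fit was checked on simulated counts. Stage was the only term. Thresholds were an adjusted p of 0.01 and a log2 fold change of 1. Standard errors were taken as |log2 fold change| over the root of the F statistic. A count of 3 corresponds to 0.152 to 0.219 CPM per library. Alternatives were library size, DESeq2 size factors and upper-quartile scaling, the DESeq2 1.42.0 Wald test, no filter (more than 1 count in some library), at least 10 counts in every library, glmTreat, other thresholds, a replicate block and each library left out.

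The genes and lists were chosen with earlier results of these data known. Named are all genes past both thresholds, those between 0.5 and 1 on the log2 scale, the largest change in each direction and the highest and lowest mean CPM per role, and all genes not tested. Others were named after their values were seen. Promoters of Fbxw10, Psmd12, Rnf112, Rnf115, Rnf34, Rnf6, Trim39, Ube2v2, Usp42, Usp43 and Usp9x were not in the RefSeq table.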

Additional observations from a re-analysis of the deposited data

Results flagged for a closer look

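In 100 sets of 4 libraries (50 genes at 2 stages), 3 held a library far from the other three by Dixon's criterion at the 95% level, which chance flags in about 1 in 20 sets. Trim16 had 33.7 CPM in P11 replicate 4, with the others between 27.7 and 28.2 CPM. Klhl28 had 12.7 CPM in P11 replicate 2, with the others between 15.0 and 15.4 CPM. Trim41 had 40.5 CPM in P11 replicate 1, with the others between 44.0 and 44.4 CPM. Without the library in question each of the genes kept its direction.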

How the results depend on the processing

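Ube2d1, Rnf2, Trim16 and Rnf6 passed both thresholds under every alternative run, and Usp43 under all but the requirement of 10 counts in every library, in which it and Fbxw10 were not tested. Usp42 lost its call under library size (0.96), upper-quartile scaling (0.97), 10 counts in every library (0.98) and glmTreat (adjusted p = 0.738), and Usp46 gained one under library size (-1.01) and upper-quartile scaling (-1.0002). Genes higher at P11 numbered 5 without a filter, which added Fbxo40, Psmb8 and Psmb9, and 1 with 10 counts in every library, where 1523 of all genes were higher at P11. With glmTreat, 3 and 3 of the other ubiquitin-system genes and 668 of all genes at E21 passed. With no fold threshold the counts were 15 and 19 for the ubiquitin and proteasome genes, 31 and 20 for the other ubiquitin-system genes, and 4743 and 4858 for all genes. The median log2 fold change was -0.1026 with library size, -0.0971 with upper-quartile scaling and -0.0784 without a filter, while the median of all genes moved to -0.05, -0.04 and -0.03. Ube2g2 and Fbxo21, near 0, changed sign under library size (-0.0327 and -0.0402), upper-quartile scaling (-0.0267 and -0.0344) and 10 counts in every library (-0.0154 and -0.0235). The cause of these changes was not tested, beyond the fewer genes tested under stricter filters. By adjusted p alone, Psmd2 and Rnf115 joined the genes higher at P11 under library size and upper-quartile scaling. With 1 library left out, Ube2g2 ranged from -0.0106 to 0.049 and Fbxo21 from -0.0135 to 0.0487, genes higher at E21 numbered 3 to 5, genes higher at P11 2, and the median ranged from -0.07 to -0.03. The replicate numbers gave correlations of deviations of -0.023, 0.09, -0.032 and 0.078, and 2 of 4 E21 libraries correlated best with their own number, so they do not pair the libraries. With the replicate number as a block, 4 genes were higher at E21 and 2 at P11, the same genes as without it, and 15 and 18 passed by adjusted p alone, Klhl22 being lost. Depth limits Fbxo40, Psmb8, Psmb9, Trim10 and Trim25.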
